A study of Mus musculus with 12 samples.

Results

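The 41 genes described here mark macrophages and monocytes and were chosen by name: 6 genes of alveolar macrophages (Marco, Ear1, Ear2, Krt79, Plet1 and Pparg), 7 of tumour macrophages, 7 of monocytes, 4 of resident tissue macrophages, 5 Fc receptors and their adaptors, 5 genes of the lysosome and of scavenging, 5 general macrophage genes and 2 inflammatory genes. They are 41 of the 78298 gene identifiers in the count table, each symbol matched 1 identifier, and all 41 were among the 22190 genes that passed the filter on low counts and were tested. RNA was sequenced from 12 mouse lung libraries, 3 in each of 4 groups: normal adjacent lung and dissected LLC tumours, each after VEH or HDM. HDM stands for house dust mite in the title of the series, an allergen given to the airways in models of allergic asthma; VEH is the control treatment, and neither VEH nor LLC is spelled out in the labels, although LLC is the usual short form of a mouse lung carcinoma line, in which case the tumours share the cells of 1 line. Strain, age, dose and schedule are not given in the sources used here, no genetic change is named for any group, and all libraries carry the same batch label.

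Macrophages of the lung fall into populations that live in different places. Alveolar macrophages sit in the air spaces, depend on the growth factor GM-CSF and on the nuclear receptor PPARγ that it induces, and clear surfactant lipid; Marco and the eosinophil-associated ribonucleases Ear1 and Ear2 are among their usual markers. Monocytes enter from the blood, either as classical cells or as patrolling cells that need Nr4a1 and carry Cx3cr1, and become macrophages in inflamed tissue and in tumours. Tumour macrophages are commonly marked by the complement C1q chains, Apoe, Trem2, Spp1 and Gpnmb. Several of these genes are not restricted to macrophages: Pparg and Cd36 are used by fat cells and Cd36 by small vessels, Krt79 and Plet1 by epithelia, Lyz2 by alveolar type 2 cells, and Spp1, Vcan, Thbs1 and Lgals3 by fibroblasts or by carcinoma cells.

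Ear1 and Ear2 are shown by sequence because they are near copies, so that reads of one could be assigned to the other. Over 695 aligned bases of their longest coding transcripts in GENCODE M39 they were 96.7% identical, and how the counting treated reads that match both is not given in the sources used here. The 250 bases before each RefSeq start, from a promoter table of build GRCm38.p6, aligned over 248 bases with 2 differences. They match GRCm39 exactly once each, at chr14:44057097-44057346 on the minus strand for Ear1 and at chr14:44339861-44340110 on the plus strand for Ear2, and capitals mark the bases that differ.
Ear1: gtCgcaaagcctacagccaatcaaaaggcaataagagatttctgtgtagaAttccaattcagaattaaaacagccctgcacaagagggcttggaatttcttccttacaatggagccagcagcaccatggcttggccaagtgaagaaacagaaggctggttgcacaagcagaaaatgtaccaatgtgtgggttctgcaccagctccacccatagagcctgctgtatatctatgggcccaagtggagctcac
Ear2: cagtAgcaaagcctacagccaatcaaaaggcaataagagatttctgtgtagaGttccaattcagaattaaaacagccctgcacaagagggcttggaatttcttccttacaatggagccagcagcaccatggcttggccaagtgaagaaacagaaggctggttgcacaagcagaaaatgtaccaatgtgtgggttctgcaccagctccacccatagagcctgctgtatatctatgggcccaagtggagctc
Values of the 2 genes are given side by side below. Both are counted in the alveolar list, although they may not be independent of each other. Of the 41 genes, 32 had an entry in the promoter table, and these 250-base windows were searched on both strands for 2 short motifs, whose matches did not overlap each other. The letters GAGGAAGT, which the macrophage factor PU.1 can bind, occurred in the windows of C1qc, Fcgr4 and Spp1, 3 of 32, and in 2.79% of the 27025 genes in the table. All 250 bases of the Spp1 window lie in annotated exons. The Fcgr4 window has 29 such bases, and its match does not lie before the first of them. The letters TGANTCA, which AP-1 can bind, occurred in those of Cd68, Folr2, Plet1 and Trem2, 4 of 32, and in 7.82% of all. The C1qc match is shown as an example from a gene that was higher in tumours. It lies in the 99 bases of the window that are outside annotated exons, at chr4:136620377-136620475 of GRCm39 on the minus strand, where the capitals are the motif read on the opposite strand.
C1qc: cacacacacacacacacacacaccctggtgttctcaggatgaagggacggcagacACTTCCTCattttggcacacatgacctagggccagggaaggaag
A match of these letters says nothing about binding in these tissues.

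Total counts ranged from 20608682 in tumour VEH 3 to 32765364 in adjacent lung VEH 2, where the number is the replicate number in the title. Levels are CPM, counts made comparable between libraries by depth and TMM factors, and p-values measure only the spread between these libraries, since nothing states how many animals they came from. Some libraries stand apart. Library names carry a prefix that joins 1 lung and 1 tumour library, and for 2 of the 6 prefixes the treatment labels conflict: adjacent lung VEH 2 shares its prefix with tumour HDM 2, and adjacent lung HDM 3 with tumour VEH 3. Labels were kept as given, and calls that move when these 2 lung labels are exchanged are given below. Adjacent lung VEH 2 also had a summed level of 6 cell cycle genes of 149 CPM, against 26.8 to 39.8 CPM in the other lungs. Its 6 endothelial markers summed to 1160 CPM, against 2230 to 2590 CPM in the other lungs. Tumour VEH 2 held the most alveolar epithelial RNA of the tumours, with 8430 CPM summed over 6 markers, and tumour HDM 3 the least, with 38.0 CPM, against 2210 to 2410 CPM in the other 4 tumours and 16900 to 42400 CPM in lung. Between tumours and lung, 1 of 6 dendritic cell markers was lower, as were 3 of 7 neutrophil, 3 of 4 platelet and 4 of 4 tested cardiac muscle markers, and none was higher. Of all genes tested 34.8% were lower in the same comparison and 28.1% higher.

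Comparing tumours with adjacent lung over both treatments (6 against 6 libraries), 12 of the 41 genes were higher and 11 lower in tumours. These calls are from edgeR's quasi-likelihood test, with p-values adjusted by Benjamini-Hochberg over all genes tested and 0.05 as the threshold. Among all genes tested, 28.1% were higher and 34.8% lower, so the share of the 41 genes that differed is near that of genes in general. Their median log2 difference was 0.14, beside -0.09 over all genes. The libraries of the 2 tissues did not overlap for 11 of the 41 genes, 6 higher and 5 lower, against 36.3% of all genes. What separated the lists was direction: 6 of 6 alveolar genes were lower and none of 7 tumour macrophage genes was, with 4 of those 7 higher. In bulk tissue, fewer cells of a type and less RNA per cell cannot be told apart, and this holds for every level below.

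**Figure D1:**
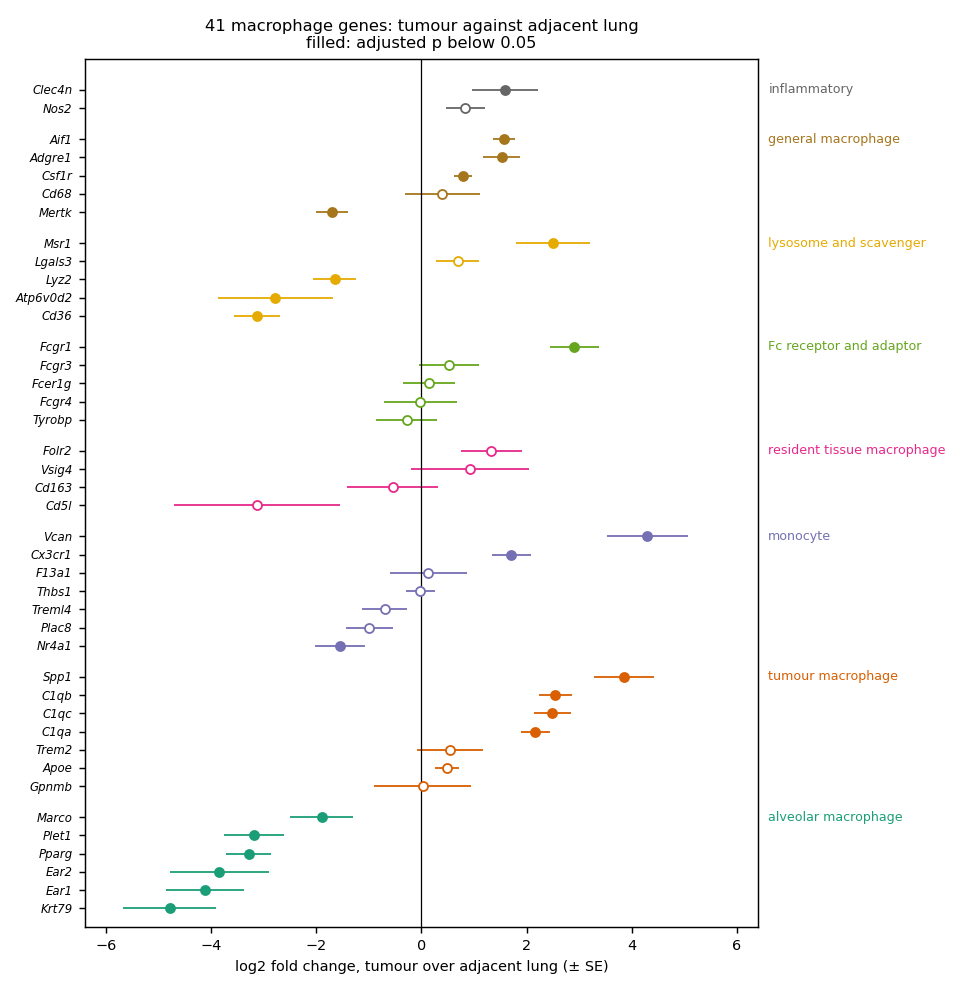
Difference between tumours and adjacent lung for the 41 genes, grouped by list; the horizontal axis is the fitted log2 fold change, bars are its standard error, and filled points passed an adjusted p of 0.05. All 6 alveolar genes lie left of 0, from -4.79 for Krt79 to -1.90 for Marco, and Vcan and Spp1 lie farthest to the right, at 4.30 and 3.86.

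The alveolar macrophage genes were all lower in tumours. Krt79, a keratin gene that marks alveolar macrophages among leukocytes, was at 6.08, 14.8 and 8.80 CPM in adjacent lung VEH 1 to 3 and at 13.7, 17.9 and 3.65 CPM in adjacent lung HDM 1 to 3. It was at 0.340, 2.45 and 0.369 CPM in tumours under VEH and at 0, 0.410 and 0 CPM under HDM. Every tumour was below every lung, and tumour VEH 2 was the highest tumour. The log2 change was -4.79 ± 0.88 (SE), with an adjusted p of 0.000917 (edgeR). Tumour HDM 2 was the 1 HDM tumour with any count, and without it the change was -7.17, still called.

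Ear1 was at 4.76, 33.4 and 10.8 CPM in lung under VEH, at 13.8, 16.5 and 3.39 CPM in lung under HDM, at 0.935, 2.31 and 0.277 CPM in tumours under VEH and at 0.246, 1.09 and 0.182 CPM in tumours under HDM. Its tissues did not overlap, and the log2 change was -4.12 ± 0.75 (SE; edgeR adjusted p 0.000894). Ear2 was at 19.0, 136 and 26.8 CPM in lung under VEH and 131, 96.5 and 12.3 CPM under HDM, and in tumours at 2.72, 15.1 and 4.34 CPM under VEH and 5.26, 4.17 and 0.0607 CPM under HDM. Tumour VEH 2 overlapped the lowest lung, HDM 3, and the change was -3.85 ± 0.94 (SE; edgeR adjusted p 0.00483). For both ribonuclease genes adjacent lung VEH 2, HDM 1 and HDM 2 were the 3 highest libraries. Related ribonucleases are also made by eosinophils, whose 4 markers summed to 0.0842 to 5.37 CPM in lung and 0.085 to 0.303 CPM in tumours. Epx was at 0 counts in all 12 libraries, and 1 of the 2 markers that could be tested (Prg2) was lower in tumours.

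Pparg, the nuclear receptor of alveolar macrophage identity, was at 13.6, 25.0 and 10.1 CPM in lung under VEH and 28.0, 24.9 and 10.1 CPM under HDM. In tumours it was at 1.78, 3.87 and 0.738 CPM under VEH and at 2.05, 1.43 and 1.52 CPM under HDM. The highest tumour stayed below the lowest lung, and the log2 change was -3.29 ± 0.43 (SE; edgeR adjusted p 0.000103). Pparg is also a fat cell gene. Fat cell markers were low: 5 of 6 could be tested, 3 were lower in tumours, their summed level was 1.22 to 35.9 CPM in lung and 0.342 to 8.28 CPM in tumours, and Lep was at 0 counts in every tumour. Their part in the Pparg difference was not tested.

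Plet1, a surface protein of alveolar macrophages and of epithelia, was at 56.0, 175 and 65.0 CPM in lung under VEH and 203, 247 and 45.2 CPM under HDM. Tumours held 7.69, 48.7 and 13.8 CPM under VEH and 9.65, 9.53 and 5.97 CPM under HDM. Only tumour VEH 2 overlapped the lungs, and the change was -3.19 ± 0.57 (SE; edgeR adjusted p 0.000819). On the opposite strand, reads of Plet1os came to 68.5% to 89.3% of the Plet1 count in each library. Whether the counting used strand is not given in the sources used here, and if it did not, reads of overlapping genes cannot be told apart. The same limit holds for Cd68 and Folr2, whose opposite-strand genes had 106% to 1740% and 119% to 927% of their own counts, for Treml4 (8.75% to 443%), and for Apoe, Atp6v0d2 and Csf1r (17.1% to 40.5% among the 3).

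Marco, a scavenger receptor for particles and bacteria, had the smallest difference of the list. It was at 3.70, 16.1 and 3.37 CPM in lung under VEH and 1.80, 11.0 and 2.36 CPM under HDM, and in tumours at 1.27, 1.26 and 1.11 CPM under VEH and 1.48, 1.13 and 4.25 CPM under HDM. Tumour HDM 3 was above 4 of the 6 lungs. The log2 change of -1.90 ± 0.60 (SE; edgeR adjusted p 0.0168) rested on adjacent lung HDM 2, without which it was -1.26 at an adjusted p of 0.0547. Marco also lost the call with either block and without the 4 libraries of conflicting prefixes. The other 5 alveolar genes kept it in every alternative run that tested them, which was 19 of 20 runs for Ear1, Ear2 and Krt79.

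**Figure D2:**
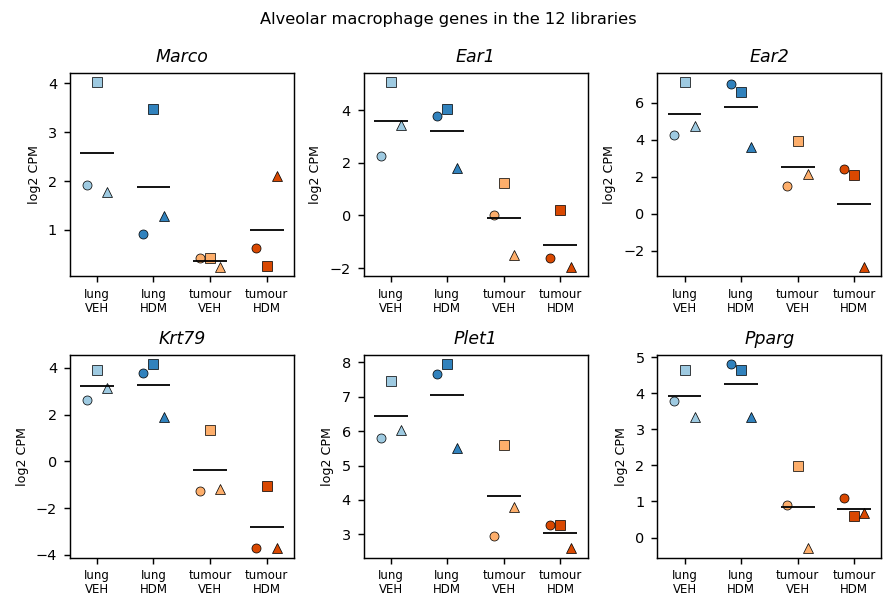
Levels of the 6 alveolar macrophage genes; the vertical axis is log2 CPM (prior count 2), points are libraries (circle, square and triangle for replicates 1, 2 and 3) and bars are group means. Krt79, Ear1 and Pparg separate the tissues completely, and tumour VEH 2, the square in the third column, is the highest tumour for each gene but Marco, where tumour HDM 3 is.

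The summed level of the 6 genes was 76.9 to 414 CPM in lung and 12.0 to 73.7 CPM in tumours, and 73.7 CPM belonged to tumour VEH 2. Plet1, which epithelia also use, was the highest of the 6 genes in every library, so this sum does not measure alveolar macrophages alone. Without that library the 6 genes had log2 changes from -5.57 (Krt79) to -1.92 (Marco), all called. Alveolar epithelial markers moved the same way: 6 of 6 were lower in tumours, without overlap between tissues, with a median change of -3.53, and tumour VEH 2 was highest there too. None of these markers was at 0 in any tumour, and the part of epithelial cells in the lower levels of the 6 genes was not tested.

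The tumour macrophage genes went the other way. The chains of C1q, the recognition part of the classical complement pathway, are encoded side by side on the minus strand of mouse chromosome 4 (GENCODE M39 on GRCm39), C1qb from 136606009 to 136613511, C1qc from 136616466 to 136620376 and C1qa from 136623223 to 136626161. C1qa was at 26.4 to 89.0 CPM in the 6 lungs and 187 to 403 CPM in the 6 tumours, C1qb at 18.4 to 72.6 and 168 to 371 CPM, and C1qc at 11.7 to 55.9 and 160 to 295 CPM. None of these ranges overlap, and the log2 changes were 2.17 ± 0.27, 2.55 ± 0.32 and 2.49 ± 0.35 (SE), with edgeR adjusted p-values of 7.32e-05, 9.01e-05 and 0.000185. All 3 held under every alternative run.

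Spp1, the secreted matrix protein osteopontin, had the largest change of the list. It was at 93.3, 678 and 80.7 CPM in lung under VEH and 194, 98.0 and 121 CPM under HDM, and in tumours at 3800, 1580 and 2570 CPM under VEH and 2730, 3990 and 2620 CPM under HDM. The tissues did not overlap, adjacent lung VEH 2 was the highest lung, and the log2 change was 3.86 ± 0.57 (SE; edgeR adjusted p 0.00023). Per kilobase of transcript, Spp1 came to a mean of 1750 RPKM in tumours, next to Lyz2 with 1810 RPKM as the most abundant of the 41 genes there.

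Gpnmb, a glycoprotein of lipid-laden macrophages, showed no such difference. It was at 25.7, 321 and 11.8 CPM in lung under VEH and 381, 206 and 49.8 CPM under HDM, and in tumours at 196, 100 and 48.4 CPM under VEH and 294, 372 and 10.7 CPM under HDM. Both tissues spanned about the same range, the lowest tumour was HDM 3, and the log2 change was 0.02 ± 0.93 (SE; edgeR adjusted p 0.99), or 1.35 without adjacent lung VEH 2, which was not called either. Trem2, a lipid receptor, and Apoe, a lipid carrier, did not pass the test either, at 0.54 ± 0.63 and 0.49 ± 0.23 (SE; edgeR adjusted p 0.478 and 0.0823). Trem2 had tumour values of 27.9 to 58.0 CPM inside a lung range of 5.64 to 67.0 CPM, and without adjacent lung VEH 2 its change was 1.61 at an adjusted p of 0.00889. A block for the library-name prefix called it too, at 1.19 (edgeR adjusted p 0.00242). Apoe was called in 5 of 20 alternatives, at up to 0.70.

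Among the 7 monocyte genes 2 were higher and 1 lower, beside 28.1% and 34.8% of all genes tested. Vcan, the matrix proteoglycan versican, which classical monocytes also make, was at 11.8, 90.5 and 3.37 CPM in lung under VEH and 32.2, 4.45 and 16.9 CPM under HDM, and in tumours at 378, 324 and 580 CPM under VEH and 668, 516 and 523 CPM under HDM. Every tumour was above every lung, with a log2 change of 4.30 ± 0.77 (SE; edgeR adjusted p 0.000811). Fibroblast markers, whose cells also make versican, summed to 508 to 1700 CPM in lung and 2570 to 4150 CPM in tumours. Of these 5 markers 3 were higher in tumours (Pdgfra, Dcn and Lum), Col1a2 was lower and Col1a1 did not differ beyond the spread. The 6 cell cycle genes, which mark dividing cells, were all higher without overlap, at 26.8 to 149 CPM in lung and 481 to 983 CPM in tumours. The part of fibroblasts or of dividing tumour cells in Vcan and Spp1 was not tested.

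Nr4a1, the nuclear receptor that patrolling monocytes need and that many cells induce rapidly on handling, was the monocyte gene with the lowest change. It was at 59.7, 38.9 and 21.7 CPM in lung under VEH and 23.4, 14.1 and 88.9 CPM under HDM, and in tumours at 18.1, 11.4 and 21 CPM under VEH and 12.0, 17.3 and 5.94 CPM under HDM. The tissues overlapped, through adjacent lung HDM 2, and the change was -1.55 ± 0.47 (SE; edgeR adjusted p 0.015). Without adjacent lung HDM 3, the highest library, it was -0.86 at an adjusted p of 0.0579. Cx3cr1, the fractalkine receptor of the same patrolling cells, was higher, at 4.29 to 22.5 CPM in lung and 18.5 to 86.8 CPM in tumours, with a change of 1.71 ± 0.37 (SE; edgeR adjusted p 0.00228). These 2 genes of patrolling monocytes thus differed in opposite directions. Treml4, Plac8, F13a1 and Thbs1 did not pass the test, with changes from -0.99 (Plac8) to 0.13 (F13a1). Plac8 was called lower in 3 of 20 alternatives, among them DESeq2 at -1.04 (adjusted p 0.0293). Treml4 was called lower in 1, with the replicate block at -0.86 (edgeR adjusted p 0.028), and F13a1 and Thbs1 in 0.

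None of the 4 resident tissue macrophage genes passed the test over both treatments in edgeR. Folr2 alone was at an unadjusted p below 0.05, and DESeq2 called it at an adjusted p of 0.0324. Folr2, a folate receptor of resident macrophages, was at 8.75, 8.97 and 1.09 CPM in lung under VEH and 4.42, 4.98 and 3.46 CPM under HDM, and in tumours at 6.16, 3.94 and 13.7 CPM under VEH and 7.15, 13.3 and 44.1 CPM under HDM. Tumour HDM 3 was far above the rest, and the change was 1.33 ± 0.58 (SE; edgeR adjusted p 0.0649). Cd5l, a secreted macrophage protein, was at 0.0821, 17.3 and 0.0842 CPM in lung under VEH and 6.55, 2.27 and 0 CPM under HDM, and in tumours at 0, 0.223 and 0.0923 CPM under VEH and 0.164, 0.342 and 5.40 CPM under HDM. Only 4 of the 12 libraries exceeded 1 CPM, adjacent lung VEH 2, HDM 1 and HDM 2 and tumour HDM 3, and the change was -3.13 ± 1.58 (SE; edgeR adjusted p 0.107). It was -0.10 without adjacent lung VEH 2, and -4.50 and called without tumour HDM 3 (edgeR adjusted p 0.0479). Tumour HDM 3 was also the highest tumour for Cd163, the haemoglobin scavenger receptor, at 38.2 CPM against 0.0425 to 4.82 CPM in the other tumours, and for Vsig4, a complement receptor, at 3.94 against 0 to 0.646 CPM. The same library was the tumour with the least alveolar epithelial RNA.

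Of the Fc receptors, which bind antibody, only the high-affinity receptor Fcgr1 differed. It was at 3.78, 12.8 and 2.82 CPM in lung under VEH and 9.79, 8 and 2.5 CPM under HDM, and in tumours at 94.1, 36.0 and 61.5 CPM under VEH and 41, 39.8 and 36.1 CPM under HDM. The tissues did not overlap and the change was 2.91 ± 0.46 (SE; edgeR adjusted p 0.000362). Tyrobp, the adaptor DAP12 that signals for Trem2 and other receptors, was at 21.4, 141 and 18.8 CPM in lung under VEH and 145, 85.8 and 15.7 CPM under HDM, and in tumours at 79.4, 58.9 and 53.9 CPM under VEH and 48.4, 67.0 and 42.4 CPM under HDM. All tumours lay between the 3 low and the 3 high lungs, with a change of -0.28 ± 0.58 (SE; edgeR adjusted p 0.692). Fcgr3, Fcgr4 and the shared signalling chain Fcer1g also had every tumour above the same 3 low lungs, with changes of 0.52, -0.02 and 0.14 that did not pass the test. Without adjacent lung VEH 2, Fcgr3 was at 1.35 with an edgeR adjusted p of 0.0197, while Fcgr4 at 1.07 and Tyrobp at 0.51 were not called. With the prefix block Fcgr3 (1.02) and Fcer1g (0.53) were called higher.

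The lysosomal and scavenger genes split. Cd36, a receptor for fatty acids and oxidised lipid, was at 725, 690 and 1020 CPM in lung under VEH and 1090, 1160 and 723 CPM under HDM, and in tumours at 77.2, 236 and 72.8 CPM under VEH and 72.8, 141 and 30.2 CPM under HDM. Every tumour was below every lung, with a change of -3.13 ± 0.43 (SE; edgeR adjusted p 0.000151). Endothelial markers fell alongside: 6 of 6 were lower without overlap, with a median of -3.25, at 1160 to 2590 CPM summed in lung and 93.9 to 448 CPM in tumours, none at 0, and their part in the Cd36 difference was not tested. Msr1, the class A scavenger receptor, went up instead. It was at 2.3, 29.3 and 1.52 CPM in lung under VEH and 14.3, 14.0 and 3.46 CPM under HDM, and in tumours at 86.7, 28.2 and 61.2 CPM under VEH and 56.2, 78.5 and 57.3 CPM under HDM. Adjacent lung VEH 2 just exceeded tumour VEH 2, and the change was 2.5 ± 0.7 (SE; edgeR adjusted p 0.0103).

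Lyz2, the lysozyme of macrophages and of alveolar type 2 cells, was the most abundant of the 41 genes in both tissues, with a mean of 5830 RPKM in lung and 1810 RPKM in tumours. It ranged from 2450 to 12200 CPM in lung and from 1110 to 3270 CPM in tumours, and fell by 1.65 on the log2 scale (SE 0.41; edgeR adjusted p 0.00513). An opposite-strand gene had 62.6% to 69.0% of its count in each library. Atp6v0d2, a proton pump subunit, was lower by the test at -2.78 ± 1.09 (SE; edgeR adjusted p 0.0455), but this call was lost in most alternatives, with adjusted p-values up to 0.206 without adjacent lung VEH 2. Lgals3, the lectin galectin-3, did not pass at 0.69 ± 0.41 (SE; edgeR adjusted p 0.163), but was called in 4 of 20 alternatives, at 1.09 without adjacent lung VEH 2 and 0.81 with the prefix block.

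Among the general macrophage genes 3 were higher and 1 lower, beside 28.1% and 34.8% of all genes tested. Aif1, the actin-binding protein IBA1, was at 9.24, 6.10 and 4.50 CPM in lung under VEH and 5, 3.62 and 5.60 CPM under HDM, and in tumours at 27.3, 22.1 and 26.7 CPM under VEH and 11.0, 12.6 and 9.16 CPM under HDM. Only tumour HDM 3 reached down to the highest lung, VEH 1, and the change was 1.57 ± 0.21 (SE; edgeR adjusted p 9.78e-05). An opposite-strand gene had 67.2% to 99.8% of the Aif1 count. Mertk, a receptor for apoptotic cells, was the exception. It was at 22.7, 65.7 and 30.7 CPM in lung under VEH and 80.4, 52.0 and 33.9 CPM under HDM, and in tumours at 12.7, 13.4 and 8.03 CPM under VEH and 15.1, 21.1 and 18.3 CPM under HDM. No tumour reached the lungs, and the change was -1.70 ± 0.30 (SE; edgeR adjusted p 0.00062).

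Adgre1, which encodes the F4/80 antigen, was at 10.2 to 46.2 CPM in lung and 42.5 to 90.2 CPM in tumours, with a change of 1.53 ± 0.35 (SE; edgeR adjusted p 0.00351). Csf1r, the receptor for the macrophage growth factor CSF-1, was at 70.3 to 147 CPM and 140 to 234 CPM, a change of 0.79 ± 0.18 (SE; edgeR adjusted p 0.0029). Adgre1, Csf1r, Aif1 and Mertk kept their calls in every alternative run. Cd68, an endosomal protein of all macrophages, did not pass, at 0.40 ± 0.72 (SE; edgeR adjusted p 0.647), with lungs spread from 8.84 to 176 CPM around tumours of 77.9 to 145 CPM. Without adjacent lung VEH 2 its change was 1.64 at an adjusted p of 0.0226, and with the prefix block 1.25 at 0.00152.

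Of the inflammatory pair, Clec4n, the fungal and mite glycan receptor dectin-2, was at 3.86, 28.8 and 5.05 CPM in lung under VEH and 26.1, 29.2 and 2.95 CPM under HDM, and in tumours at 61.5, 33.6 and 34.9 CPM under VEH and 51.0, 78.8 and 24.4 CPM under HDM. Only tumour HDM 3 overlapped the lungs. The change of 1.59 ± 0.63 (SE) was just past the threshold (edgeR adjusted p 0.0478) and lost the call in most alternatives, with adjusted p-values up to 0.13. Nos2, the inducible nitric oxide synthase, was at 8.87, 15.2 and 5.73 CPM in lung under VEH and 13.1, 4.83 and 7.37 CPM under HDM, and in tumours at 17.2, 6.84 and 19.0 CPM under VEH and 20.7, 23.8 and 10.6 CPM under HDM. The tissues overlapped and it did not pass, at 0.83 ± 0.37 (SE; edgeR adjusted p 0.0691), but was called in 5 of 20 alternatives, at up to 1.08.

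**Figure D3:**
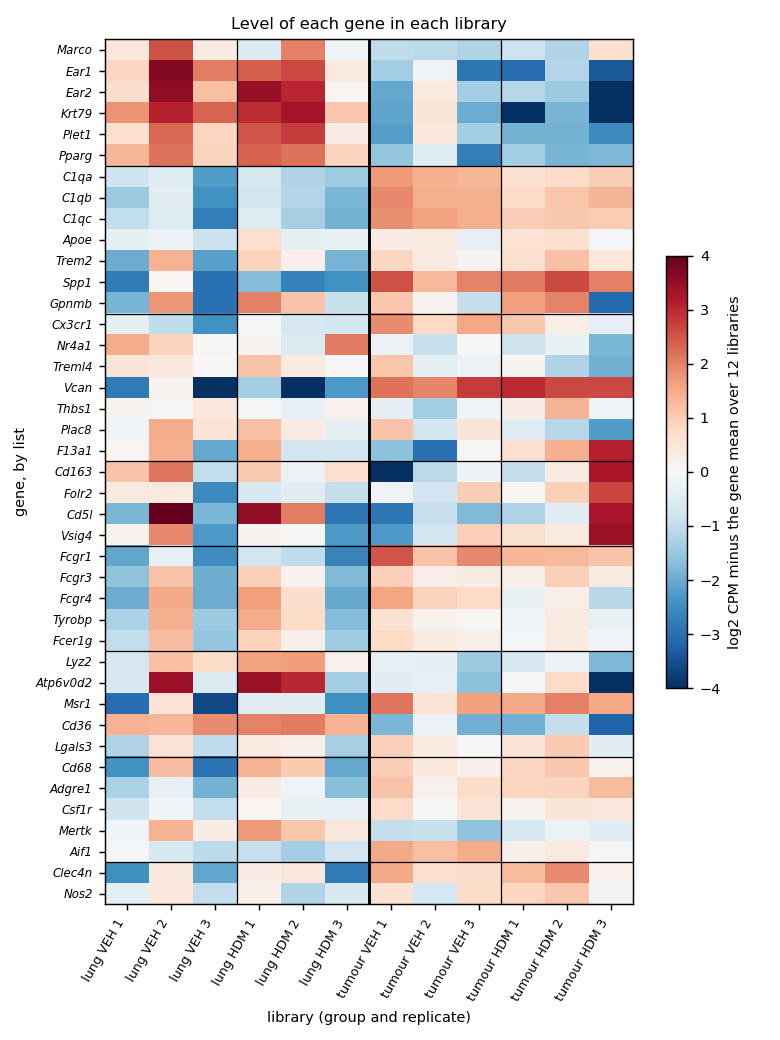
Level of each of the 41 genes (rows, by list) in each of the 12 libraries (columns); colour is log2 CPM minus the gene's mean over the libraries, red above and blue below. Most alveolar genes are higher in lung than in tumours, with Marco in tumour HDM 3 and several genes in tumour VEH 2 nearer to lung, C1q genes, Spp1, Vcan and Fcgr1 are higher in tumours, and Cd163, Folr2, Cd5l and Vsig4 are reddest among tumours in HDM 3.

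The alveolar genes were next set against the other lists within each library, which removes what all lists share. The mean log2 CPM of the 6 alveolar genes minus that of the 5 general macrophage genes was -0.44 ± 0.40 (SD, n = 3) in lung under VEH and -0.93 ± 0.67 in lung under HDM, and -4.41 ± 1.20 in tumours under VEH and -5.39 ± 0.61 under HDM. Against the tumour macrophage genes the difference was -1.75 ± 0.63 and -2.12 ± 0.80 in lung and -6.93 ± 1.15 and -7.81 ± 0.24 in tumours. Against the monocyte genes it was -0.27 ± 0.74 and -0.24 ± 1.40 in lung and -3.73 ± 1.69 and -4.79 ± 0.47 in tumours. Lungs and tumours did not overlap in any of these 3 differences, the nearest tumour always being VEH 2. They are a description with no test, since the lists were chosen with results known.

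**Figure D4:**
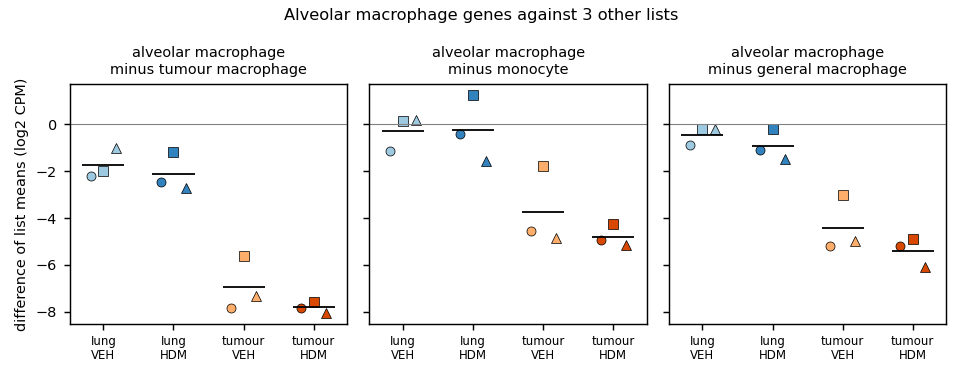
Mean log2 CPM of the alveolar macrophage genes minus that of the tumour macrophage, monocyte and general macrophage genes; points are libraries (symbols by replicate) and bars are group means. Every tumour lies below every lung in each panel, and tumour VEH 2 lies nearest: against the monocyte genes it is at -1.78, close to adjacent lung HDM 3 at -1.55.

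Each treatment was also compared on its own. Under VEH, 10 of the 41 genes were higher and 6 lower in tumours (edgeR, adjusted p below 0.05), against 18.2% and 20.6% of all genes tested, and under HDM 9 were higher and 10 lower, against 23% and 28.9%. C1qa, C1qb, C1qc and Spp1 were higher under both treatments. Of the alveolar genes 4 were called lower under VEH and 5 under HDM, with medians of -2.97 and -4.38. Under VEH the Marco call was lost in 9 alternatives, among them the label exchange (-1.36, adjusted p 0.123), the Krt79 call in 10 and the Ear1 call in 3. Fcgr1, Adgre1, Aif1 and Vcan were also higher under both. Folr2 was called under HDM alone, at 2.33 ± 0.84 (SE; edgeR adjusted p 0.0385), and Cx3cr1 and Csf1r under VEH alone. The Folr2 call rested on tumour HDM 3, without which it was 1.39 at an adjusted p of 0.165, and it was also lost with either block (0.0927 and 0.106), with no filter on low counts, without any 1 of the HDM lungs and with the conflicting lungs left out or exchanged. With the 2 conflicting lung labels exchanged, 19 members were higher and 6 lower under VEH. Among the 22190 genes tested 5159 were then higher and 5580 lower, against 4045 and 4579 with labels as given. Higher in addition were Trem2 (2.47), Fcgr3 (2.3), Fcgr4 (3.15), Tyrobp (1.78), Fcer1g (1.79), Msr1 (4.59), Lgals3 (1.67), Cd68 (3) and Clec4n (3.45). Under HDM the exchange gave 9 members higher and 15 lower, beside 5174 and 6738 of all genes. Fcgr4, Tyrobp and Fcer1g were among those lower (-1.62, -1.24 and -0.78). A block for the library-name prefix, with labels as given, also called these 9 genes higher under VEH and these 3 lower under HDM. The block and the exchange both use the prefixes, so the 2 runs are not independent. Whether the tissue difference itself depended on treatment was tested by the interaction, and 0 of the 41 genes passed in edgeR and 0 in DESeq2, with 2 at an unadjusted p below 0.05 (Cx3cr1 and Thbs1). Over all genes 0% passed in edgeR and 9.39% were below an unadjusted p of 0.05.

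HDM against VEH in tumours gave no call among the 41 genes (edgeR), where 6 were at an unadjusted p below 0.05. Over all genes tested 0.0946% were called, 0.00901% higher and 0.0856% lower, and 16.7% were below an unadjusted p of 0.05. Tumours of the 2 treatments did not overlap for 8 of the 41 genes, 3 higher and 5 lower under HDM, against 22% of all genes. The share of the 41 genes is thus near that of genes in general. The lower ones included the 3 C1q genes, which are neighbours on 1 chromosome and may not vary independently. C1qa was at 403, 328 and 311 CPM under VEH and 187, 211 and 246 CPM under HDM, and all 3 genes had every HDM tumour below every VEH tumour. Their log2 changes were -0.69 ± 0.37, -0.51 ± 0.43 and -0.62 ± 0.47 (SE), with edgeR adjusted p-values of 0.362 to 0.581.

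Aif1 and Fcgr4, the IgG receptor of monocytes and neutrophils, were the other 2 lower genes. Aif1 had the lowest adjusted p of the 41, at -1.22 ± 0.29 (SE; edgeR adjusted p 0.139), and DESeq2 called it at an adjusted p of 0.00256. Thbs1, F13a1 and Mertk were the 3 higher genes. F13a1, a coagulation factor chain of monocytes and resident macrophages, was at 8.84, 3.42 and 28.6 CPM in VEH tumours and 43.1, 73.6 and 240 CPM in HDM tumours. Its change was 3.13 ± 1.11 (SE; edgeR adjusted p 0.227), DESeq2 called it at an adjusted p of 0.0273, and it was 2.12 without tumour HDM 3. Platelets also carry F13a1, and the 4 platelet markers summed to 72.6 CPM in tumour HDM 3 against 13.9 to 31.1 CPM in the other tumours. Of those 72.6 CPM, 56.9 were Pf4, which macrophages can make too, and the part of platelets was not tested. The 4 resident macrophage genes had changes of 1.44 to 4.14 under HDM that did not pass and rested on that library: without it Cd163 went from 3.10 to 0.98 and Folr2 from 1.44 to 0.39.

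In adjacent lung 0 of the 41 genes differed between HDM and VEH by edgeR, 0 were at an unadjusted p below 0.05, and DESeq2 called 0 of them. Over all genes 0% were called by edgeR, 5.54% were below an unadjusted p of 0.05, and 10.3% did not overlap between the treatments, as 0 of the 41 genes did. The spread within each lung group was wide and shared between genes. Cd68, chosen for display after its values were seen, was at 13, 160 and 8.84 CPM under VEH and 176, 141 and 16.5 CPM under HDM, so that VEH 2, HDM 1 and HDM 2 were high and VEH 1, VEH 3 and HDM 3 low. Atp6v0d2 had the same 3 high and 3 low lungs, at 13.3, 221 and 13.9 CPM and 226, 169 and 7.99 CPM. Tyrobp, Trem2, Fcgr3, Fcgr4, Fcer1g, Lgals3, Gpnmb and Clec4n also had these 3 libraries as their highest lungs.

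Exchanging the labels of the conflicting libraries would put the 3 high lungs in 1 group and the 3 low lungs in the other. With the treatment labels of adjacent lung VEH 2 and HDM 3 exchanged, 13 of the 41 genes were called higher under HDM and none lower (edgeR, adjusted p below 0.05), against 2.27% of all genes called higher. The HDM lungs were then all above the VEH lungs for 23 of the 41 genes, against 13.9% of all genes, and the median log2 change was 1.56 beside -0.02 over all genes. Cd68 changed by 3.64 ± 0.31 (SE; edgeR adjusted p 0.00104), and all 5 Fc receptor and adaptor genes were called, from 1.75 for Fcgr1 to 3.37 for Fcgr4. The others called were Trem2, Cd5l, Msr1, Lgals3, Adgre1, Mertk and Clec4n. None of the 6 alveolar genes was called, although 5 of them did not overlap, with a median of 1.69. Of 16 other alveolar macrophage genes 8 were called higher with the exchange and none lower, from 1.51 for Abcg1, a cholesterol exporter, to 5.76 for Chil3. C1qa, at 0.62 ± 0.31, and Aif1, at -0.39 ± 0.29, were not called, with overlapping lungs. Some other markers separated with the labels as given, where 10.3% of all genes did not overlap in either direction. For 4 of 5 cardiac muscle and 3 of 6 fat cell markers every HDM lung was above every VEH lung, though none was called. Of 6 cell cycle genes 1 was lower without overlap. No endothelial, neutrophil, dendritic cell, eosinophil, platelet, fibroblast or alveolar epithelial marker separated. The cardiac markers summed to 3.62 to 29.4 CPM in VEH lungs and 120 to 260 CPM in HDM lungs. Which labels are right cannot be told from these files, so no direction of the mite treatment in lung is drawn from the 41 genes. Adjacent lung VEH 2 and HDM 1 were also the lungs with the most neutrophil RNA, at 806 and 582 CPM summed over 7 markers against 19.7 to 89.3 CPM in the other 4, and the part of these cells was not tested.

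**Figure D5:**
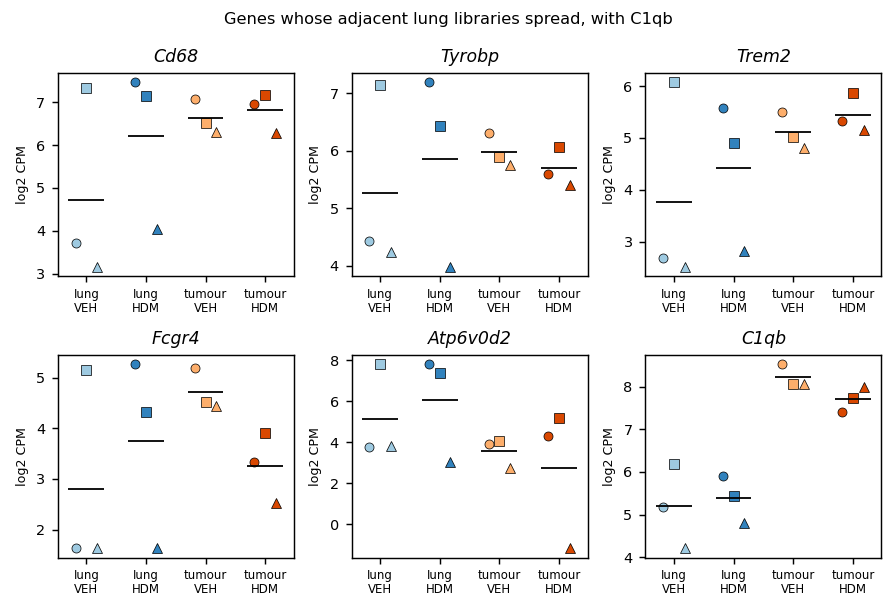
Levels of Cd68, Tyrobp, Trem2, Fcgr4, Atp6v0d2 and C1qb; the vertical axis is log2 CPM (prior count 2), points are libraries (circle, square and triangle for replicates 1, 2 and 3) and bars are group means. In adjacent lung VEH 2, HDM 1 and HDM 2 are high and the other 3 low for the first 5 genes, while for C1qb every tumour is above every lung.

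Other macrophage genes, in 6 lists also chosen with earlier results of these data known, are set beside the 41 as description. Among all genes tested 28.1% were higher in tumours and 34.8% lower. Of 16 further alveolar macrophage genes 9 were lower in tumours and none higher (median -2.19), among them Chil3, a chitinase-like protein, at -5.30 ± 1.40, Car4, a carbonic anhydrase also of capillaries, at -4.72 ± 0.67, and Siglecf, a lectin also of eosinophils, at -3.10 ± 0.63 (SE; edgeR adjusted p 0.00742, 0.000186 and 0.00161). The largest fitted fall was that of Fabp1, a lipid carrier at or below 1.94 CPM in every lung and at 0 counts in the HDM tumours. Mrc1, the mannose receptor, was not called at -0.26, and it was highest in tumour HDM 3 at 352 CPM. Of 7 further resident macrophage genes 4 were lower and none higher, with the largest fall in Cbr2, a carbonyl reductase also of airway cells, at -4.85 ± 0.74 (SE; edgeR adjusted p 0.0003).

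Of 8 growth factor and receptor genes 2 were higher and 1 lower, beside 28.1% and 34.8% of all genes tested. The ligands of Csf1r both rose: Csf1 from 36.6 to 82.0 CPM across lungs to 165 to 324 CPM across tumours, a change of 1.81 ± 0.20, and Il34 by 1.26 ± 0.17 (SE; edgeR adjusted p 3.97e-05 and 0.000143). Csf2, which encodes GM-CSF, was at 1.15 to 2.77 CPM in lung and 0.0607 to 0.646 CPM in tumours (edgeR adjusted p 4.38e-05), with 2 counts or fewer in each HDM tumour. Il34 is overlapped on the opposite strand by Mtss2 and Vac14, with 162% and 143% of its count summed over the libraries, and Csf2 by a gene with 69.3%, so the strand limit above holds for both. Its receptor chains Csf2ra and Csf2rb did not pass, at -0.19 ± 0.45 and -0.06 ± 0.59 (SE). Of 13 transcription factors 7 were lower, with the largest fall in Klf4 at -2.20 ± 0.42 and with Bhlhe41, a repressor in alveolar macrophages, at -2.10 ± 0.26 (SE; edgeR adjusted p 0.00124 and 7.51e-05). Mitf, a regulator of lysosomal genes, was higher at 0.86 ± 0.28 (SE; edgeR adjusted p 0.0192). Spi1, which encodes PU.1, did not pass at 0.02 ± 0.51 (SE), with tumours at 34.5 to 64.4 CPM inside a lung range of 10.2 to 102 CPM.

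Of 10 further monocyte genes 2 were higher and 3 lower, again beside 28.1% and 34.8% of all genes tested. Fn1, fibronectin, had the largest rise, at 4.53 ± 0.59, and Ace, an enzyme of capillaries and of patrolling monocytes, the largest fall, at -3.93 ± 0.41 (SE; edgeR adjusted p 0.000114 and 3.29e-05). Ly6c2 and Ccr2, which mark classical monocytes, did not pass, at -0.49 ± 0.70 and 0.33 ± 0.35 (SE). Of 14 further tumour macrophage genes 7 were higher and 4 lower, from Mmp12, the macrophage elastase, at 3.58 ± 0.71 to Vegfa, a vessel growth factor, at -2.85 ± 0.31 (SE; edgeR adjusted p 0.00147 and 3.86e-05). Arg1, arginase, did not pass at 1.77 ± 1.05 (SE). Cd9, Lpl and Mrc1 stand in more than 1 of these lists.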

How the data were processed

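RNA of 12 mouse lung libraries in 4 groups of 3 was sequenced from both ends by a stranded dUTP method, per the labels' protocols. The authors deposited raw counts per gene, with gene lengths, per the file headers. Trim Galore, STAR, featureCounts (Subread) and build mm39 are named in the submitters' processing notes; versions, annotation release and strand setting are not given in the sources used here. Of the 78298 identifiers, 78168 occur in GENCODE M39, from which symbols and coordinates were taken; the 130 others held 0.143% of counts.

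The members and all gene lists were chosen with earlier results of these data known. All 41 members may be named; values of every library are given for the alveolar genes and for the highest and lowest change of each other list, and for the 6 lists of other macrophage genes the largest rise and fall and 11 genes set by name, except 1 gene that is not reported here. Chil3, Il34, Bhlhe41, Mitf, Mrc1 and the marker genes of other cell types were named after their values were seen. In R 4.3.3, edgeR 4.0.16 fitted 1 robust quasi-likelihood model to all 12 libraries (TMM scaling, filterByExpr with a minimum count of 10), with a coefficient per group. Tests are two-sided, adjusted by Benjamini-Hochberg over 22190 genes and called below 0.05. Standard errors are those of the log2 fold change. RPKM is CPM per kilobase of deposited length. Fits were tested on simulated data. Alternatives were other scalings, filters on low counts, fits restricted to the compared groups, the DESeq2 1.42.0 Wald test, blocks for replicate number or library-name prefix, exclusion or exchange of the conflicting libraries, and leaving out each library.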

Additional observations from a re-analysis of the deposited data

How the results depend on the processing

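For tumours against adjacent lung over both treatments, 19 of the 23 called members stayed called in every alternative run that gave them an adjusted p. Ear1, Ear2, Krt79 and Vcan had an adjusted p in 19 of the 20 runs, the other called members in all 20. Marco, Nr4a1, Atp6v0d2 and Clec4n, 4 members, lost the call in at least 1 run. The number called ranged from 20 to 27. Under VEH, 5603 genes and 21 members were called without the 4 libraries of conflicting prefixes. With the 2 conflicting lung labels exchanged it was 10739 genes and 25 members, beside 8624 and 16 in the main fit. Members called ranged from 11 to 25 under VEH and from 13 to 24 under HDM. For HDM against VEH in tumours, genes called numbered 8 with library size only, 52 with no filter, 53 with at least 10 counts in every library, 1311 (2 members, Aif1 and F13a1) by DESeq2, 0 in a fit of only the compared groups and 0 without the 4 conflicting libraries. In adjacent lung, DESeq2 called 43 genes, and the exchange gave 576 genes and 13 members, with Cd5l at 7.22 and Msr1 at 2.98 of opposite sign to the labels as given. For the interaction, DESeq2 called 222 genes, and the exchange gave 186 genes and 7 members, all lower, with Trem2 at -2.59 of opposite sign. The cause of these shifts was not tested. On a scale of log2 of CPM plus 0.5, the alveolar list in HDM tumours was -7.05, -4.65 and -4.12 from the tumour macrophage, general macrophage and monocyte lists. Leaving out each library in turn gave 13290 to 14188 genes and 20 to 27 members over both treatments, 5733 to 9070 genes and 12 to 22 members under VEH, 9822 to 11801 genes and 15 to 20 members under HDM, 0 to 24 genes for HDM against VEH in tumours and 0 to 6 for the interaction; no member was called there or in adjacent lung.

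Same-numbered libraries did not deviate together (correlations of -0.30 to 0.16), nor did those of 1 prefix in every case (-0.22 to 0.18), which does not meet the rule for pairing (every pair above 0.1), and the labels do not say what a prefix marks. The prefix block called 26 members and 12737 genes over both treatments, 24 and 5783 under VEH, and 21 and 8631 under HDM. In the main fit these were 23 and 13962, 16 and 8624, and 19 and 11512. With the replicate block, 25 members and 13504 genes were called for tumours against lung over both treatments. For HDM against VEH that block called 0 members in either tissue, and 1 gene in tumours. Cd5l and Vsig4 were under 1 CPM in most libraries, where few counts limit the precision.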
